A study of Mus musculus with 8 samples.

Results

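The 52 genes described here copy the genome in S phase or divide the cell in G2 and M phase, and they were measured in the adipose fraction of mouse back skin after the hair had been plucked. A gene entered by its name in the array design. They were 26 DNA replication genes, called S phase genes below, and 26 mitosis genes, called G2/M genes below, out of 34790 gene names measured.

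Proliferating cells switch these genes on in a fixed order. E2F transcription factors raise replication genes as a cell commits to S phase, and the MuvB complex with MYBL2 and FOXM1 raises mitosis genes later, while in resting cells the DREAM complex, built from MuvB, E2F4 or E2F5 and a pocket protein, keeps both sets low. DREAM and MuvB reach mitosis genes through a short promoter element called the cell cycle genes homology region, CHR, and E2F sites serve the replication genes. In resting skin few cells divide, and plucking a resting hair follicle is known to start a new growth phase in which its germ and matrix cells multiply.

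All mice were female C57BL/6, an inbred laboratory strain, with the back hair follicles in their resting phase, and the hair coats had been brought into step by an earlier waxing. Plucked skin, whose hair had been pulled out with wax, was sampled at 12 h, 1 d, 2 d and 4 d from mice labelled 10 weeks old, at 6 d and 10 d from mice labelled 11 weeks old, and at 50 d from a sample labelled 17 weeks old. The control, taken from shaved and unplucked skin, was labelled 10 weeks old. Age and time after plucking cannot be told apart at 6 d, 10 d and 50 d. The treatment protocol of the labels gives an age of 7 to 8 weeks instead, and nothing in the labels settles the difference. The labels do not say how many mice a sample holds, and they call the material adipose cells where the design text speaks of adipose and dermal tissue around the follicles.

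Each group was 1 single-colour Agilent array, so no time has a replicate. A value below is a description of these 8 RNA samples, with no test and no p-value. Levels are log2 processed signals from which the array's own 75th percentile was subtracted, so a level of 0 is that percentile itself. Differences are plucked minus shaved control on the same log2 scale, and a difference of 1 is 2-fold. Since all 7 comparisons share the control array, a departure of that array moves all of them together.

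On the log2 scale the typical SD was 0.063 to 0.096 among repeated spots of 1 probe and 0.15 to 0.18 among the differences given by several probes of 1 gene. Several of the S phase medians below are no larger than that. On an array 72.9% to 81.2% of spots were well above background. The median difference over all genes lay between -0.13 and 0.04 at the 7 times. The spread between mice is not known.

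The 8 arrays lay on 1 slide. The first number of each array's position code in the file headers split them into 2 groups, called slide columns here. Whether that number counts columns or rows was not checked. The first column held the 12 h, 1 d, 2 d and 50 d arrays, and the second held the 4 d, 6 d, 10 d and shaved control arrays. All 8 markers of mature adipocytes, such as Adipoq and Plin1, were well above background on every array, and so were all 7 basal keratinocyte markers, all 7 macrophage markers and all 6 skeletal muscle markers, so the samples hold RNA of several tissues. In such bulk samples a change in the number of cells and a change in the RNA per cell cannot be told apart.

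The promoters of both sets show which elements their members carry. RefSeq promoter windows on GRCm38.p6, from 250 bases before to 50 bases after the gene's start, were at hand for 42 of the 52 members, 20 of them G2/M and 22 S phase genes. The other 10 were Ccna2, Aurkb, Kif20a, Tpx2, Foxm1, Fam64a, Ccne2, Mcm4, Gins1 and Gins2. Where a gene had several windows, as 5 members did, a motif in any of them counted.

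The CHR letters TTTGAA or TTCGAA, on either strand, stood in the windows of 16 of 20 G2/M genes (80.0%) and 5 of 22 S phase genes (22.7%). Over all 27025 genes with a window the share was 21.7%. Within 50 bases on either side of the start, 14 of 20 G2/M genes (70.0%) and 1 of 22 S phase genes (4.55%), Cdc45, held them, against 6.12% of all genes. The E2F letters TTCCCGC or TTGGCGC or TTCGCGC or TTGCCGC, on either strand, stood in the windows of 3 of 20 G2/M genes (15%) and 15 of 22 S phase genes (68.2%), against 10.9% of all genes.

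The CCAAT box, the letters CCAAT on either strand bound by the factor NF-Y, did not separate the sets as sharply. It was found in 17 of 20 G2/M genes (85.0%) and 14 of 22 S phase genes (63.6%), against 41.1% of all genes. The GC box, GGGCGG on either strand, was found in 16 of 20 G2/M genes (80.0%) and 16 of 22 S phase genes (72.7%), against 38.2% of all genes. CCAAT and E2F letters can share bases, and they did so in Ccnb1, Mcm7 and Prim1.

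**Figure D1:**
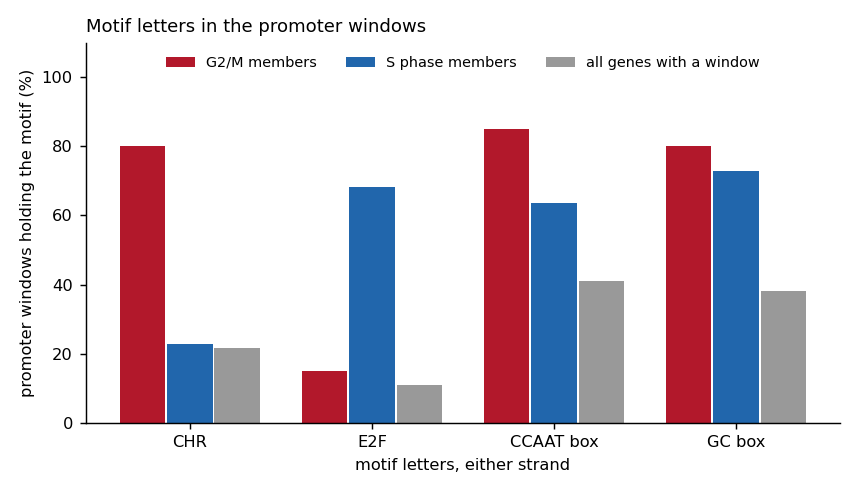
Share of genes in percent with a promoter window that holds each motif on either strand, for 20 G2/M genes, 22 S phase genes and all 27025 genes with a window. A gene with several windows counts once. CHR letters stand in the windows of 80.0% of G2/M genes and E2F letters in those of 68.2% of S phase genes, while the GC box is about as common in both sets.

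The windows of 3 G2/M genes with a CHR near the start, 3 S phase genes with several E2F letters and Cdk1, which holds both, are shown because they carry these contrasts. They are read along the gene's own strand. Capitals mark CHR letters in Cdc20, Ube2c and Kif11, E2F letters in Mcm5, Mcm6 and Cdt1, and both kinds in Cdk1. Cdc20 activates the anaphase-promoting complex, Ube2c is the ubiquitin-conjugating enzyme of that complex and Kif11 is the motor that pushes the spindle poles apart. Mcm5 and Mcm6 are subunits of the replicative helicase, Cdt1 loads that helicase onto origins, and Cdk1 is the kinase that drives entry into mitosis.
Cdc20, chr4:118437294-118437593, minus strand: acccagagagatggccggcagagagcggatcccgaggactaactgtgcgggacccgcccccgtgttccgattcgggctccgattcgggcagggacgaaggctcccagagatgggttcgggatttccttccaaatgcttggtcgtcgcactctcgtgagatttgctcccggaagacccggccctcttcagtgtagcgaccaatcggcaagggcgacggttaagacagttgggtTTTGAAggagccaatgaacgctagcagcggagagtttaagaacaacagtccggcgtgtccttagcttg
Ube2c, chr2:164769679-164769978, plus strand: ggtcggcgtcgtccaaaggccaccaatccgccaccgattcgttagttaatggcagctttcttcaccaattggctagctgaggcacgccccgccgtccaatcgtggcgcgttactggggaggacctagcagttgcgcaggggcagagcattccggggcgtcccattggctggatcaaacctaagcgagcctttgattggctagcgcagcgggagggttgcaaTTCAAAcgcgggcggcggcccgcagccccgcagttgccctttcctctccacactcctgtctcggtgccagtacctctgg
Kif11, chr19:37376132-37376431, plus strand: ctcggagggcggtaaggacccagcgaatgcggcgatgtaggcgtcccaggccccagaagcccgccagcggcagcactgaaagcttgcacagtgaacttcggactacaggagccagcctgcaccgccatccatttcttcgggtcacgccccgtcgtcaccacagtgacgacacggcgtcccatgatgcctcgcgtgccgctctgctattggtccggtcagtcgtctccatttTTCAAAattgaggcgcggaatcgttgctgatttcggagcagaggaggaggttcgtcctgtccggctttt
Mcm5, chr8:75109259-75109558, plus strand: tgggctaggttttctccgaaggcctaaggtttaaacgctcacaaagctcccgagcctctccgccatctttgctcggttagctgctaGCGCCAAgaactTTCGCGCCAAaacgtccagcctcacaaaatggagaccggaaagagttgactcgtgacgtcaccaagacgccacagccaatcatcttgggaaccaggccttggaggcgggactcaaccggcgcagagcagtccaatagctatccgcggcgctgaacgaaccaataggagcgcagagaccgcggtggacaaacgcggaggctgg
Mcm6, chr1:128359656-128359955, minus strand: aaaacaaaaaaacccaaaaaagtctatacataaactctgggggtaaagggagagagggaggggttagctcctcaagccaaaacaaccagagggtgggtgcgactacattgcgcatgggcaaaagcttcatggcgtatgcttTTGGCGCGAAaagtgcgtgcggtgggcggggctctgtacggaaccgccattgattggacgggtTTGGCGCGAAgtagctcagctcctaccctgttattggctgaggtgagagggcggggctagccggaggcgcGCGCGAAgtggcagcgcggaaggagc
Cdt1, chr8:122567765-122568064, plus strand: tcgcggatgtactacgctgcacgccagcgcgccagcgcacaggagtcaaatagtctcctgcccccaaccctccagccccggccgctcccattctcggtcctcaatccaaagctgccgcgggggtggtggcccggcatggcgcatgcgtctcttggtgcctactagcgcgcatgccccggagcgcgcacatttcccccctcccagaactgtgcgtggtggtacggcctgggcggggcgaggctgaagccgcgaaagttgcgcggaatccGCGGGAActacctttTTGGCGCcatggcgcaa
Cdk1, chr10:69352863-69353162, minus strand: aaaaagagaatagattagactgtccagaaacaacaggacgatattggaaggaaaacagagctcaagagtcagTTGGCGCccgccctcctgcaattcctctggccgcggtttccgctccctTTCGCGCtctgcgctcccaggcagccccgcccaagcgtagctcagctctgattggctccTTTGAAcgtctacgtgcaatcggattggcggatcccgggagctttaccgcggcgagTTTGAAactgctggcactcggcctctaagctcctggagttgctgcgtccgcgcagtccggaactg
Cdc20, Ube2c and Kif11 hold 1 match each, Mcm5 holds 3, Mcm6 5, Cdt1 2 and Cdk1 2 of each kind, and a capital run of 10 letters joins overlapping matches. A match to these letters is a description of the window and not evidence that a factor binds it.

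The members' differences from the control fell into 3 stages, which the heat map of all members shows. At 12 h, 1 d and 2 d the G2/M genes were lower than in the shaved control while the S phase genes were close to it. At 4 d nearly all members of both sets were higher, and at 6 d they were still higher but by less. At 10 d and 50 d the S phase genes were close to the control again and the G2/M genes were lower.

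**Figure D2:**
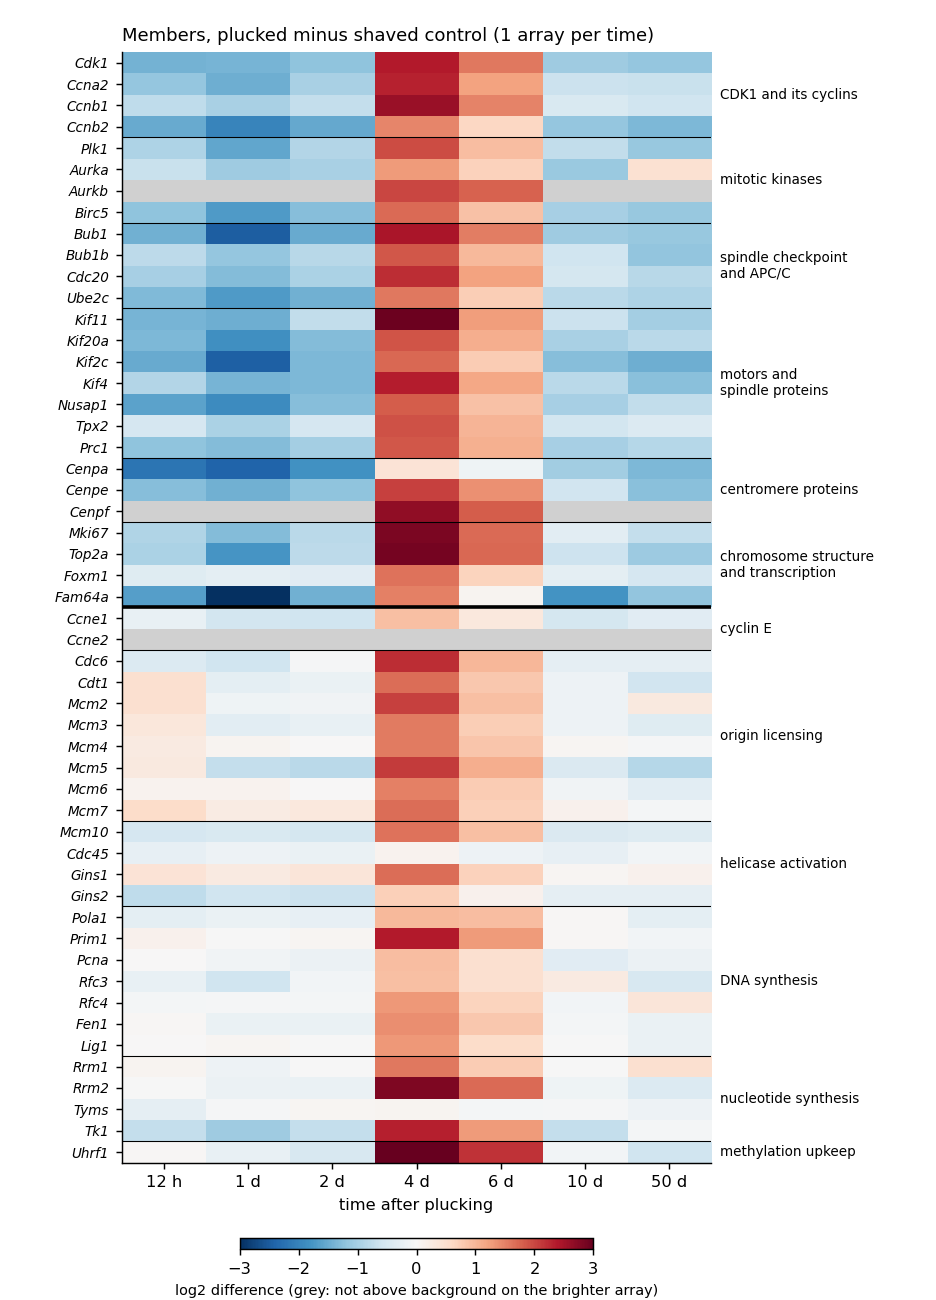
Difference of each of the 52 members from the shaved control at 7 times after plucking, in log2 units by colour, with 1 array per time, colours ending at 3 in either direction and grey where a gene was not measured. Members run down the page by role, with a thick line between G2/M genes above and S phase genes below. Blue at 12 h to 2 d, at 10 d and at 50 d is largely limited to the upper set, and red at 4 d spans both.

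At 12 h after plucking the median G2/M gene differed by -1.21, and 14 of the 24 measured were at least 2-fold lower and none higher. The median S phase gene differed by 0.02, and 0 of the 25 measured passed 2-fold in either direction. Of all 29288 genes measured in that comparison, 3.36% were at least 2-fold lower and 3.89% at least 2-fold higher. A gene counts as measured when the brighter of its 2 arrays shows it well above background. All 24 G2/M genes lay below the S phase median, and 21 of them lay below the lowest S phase gene.

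The lowest G2/M genes at 12 h were Cenpa, the histone variant that marks centromeres, at -2.20, and Fam64a, a nuclear protein of dividing cells also called Pimreg, at -1.66. The least affected were Foxm1, the transcription factor of mitosis genes, at -0.36, and Tpx2, which activates Aurora A on the spindle, at -0.51. Among S phase genes the range ran from Gins2, a subunit of the GINS part of the helicase, at -0.75, and Tk1, a thymidine salvage kinase, at -0.71, to Cdt1 at 0.49 and the helicase subunit Mcm7 at 0.56. None of these S phase differences reached 2-fold.

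By 1 d the G2/M genes had their lowest median, -1.46, or 2.75-fold lower, and 21 of 24 measured members were at least 2-fold lower. The S phase median was -0.18, and only Tk1, at -1.06, was past 2-fold among 25 measured members. In all, 22 members were at least 2-fold lower, against 3.14% of 28651 genes measured, and none was at least 2-fold higher, against 2.75%. The 3 G2/M genes short of 2-fold were Ccnb1 at -0.98, Tpx2 at -0.96 and Foxm1 at -0.30. Fam64a was the lowest at -3.03, followed among members above background on both arrays by Cenpa at -2.41. Bub1, a spindle checkpoint kinase, was at least 5.51-fold lower and Kif2c, a microtubule-depolymerising motor, at least 3.99-fold lower. Both were not well above background at 1 d, so their fold is a bound.

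At 2 d the G2/M median was -1.12, and 13 of the 24 measured were at least 2-fold lower, against 3.52% of all genes. None was at least 2-fold higher, against 2.62%. Kif2c is among the 13, and as a bound it was at least 2.48-fold lower. Cenpa at -1.81 and the mitotic cyclin Ccnb2 at -1.53 were lowest, and Foxm1 at -0.33 and Tpx2 at -0.52 were again nearest to the control. S phase genes had a median of -0.18, from Mcm5 at -0.80 and Tk1 at -0.72 to Mcm7 at 0.33 and Gins1, another GINS subunit, at 0.36. None of them was past 2-fold.

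The 4 d array held the highest level of every member that was well above background on all 8 arrays, 22 of 22 G2/M genes and 25 of 25 S phase genes. The median G2/M gene differed by 1.94, or 3.83-fold, and the median S phase gene by 1.55, or 2.93-fold. At least 2-fold higher were 25 of 26 G2/M genes and 18 of 25 S phase genes, 43 members in all, against 5.93% of 28881 genes measured. No member was at least 2-fold lower, against 6.54% of genes. Of the 25, Aurkb, the kinase of the chromosomal passenger complex, and Cenpf, a kinetochore protein, were not well above background in the control. Their measured differences were 1.997 and 2.65, but as bounds they were at least 1.02-fold and at least 1.32-fold higher. Among the 24 G2/M genes above background on both arrays, 23 were at least 2-fold higher.

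The G2/M genes highest at 4 d were Kif11 at 2.94, or 7.68-fold, and Top2a, the topoisomerase that disentangles chromosomes, at 2.87. The lowest were Cenpa at 0.42, the G2/M gene that did not reach 2-fold, and Aurka, the Aurora A kinase of the spindle poles, at 1.28. Among S phase genes, Uhrf1, which carries DNA methylation over to the new strand, was 9.76-fold higher at 3.29, the largest difference of all members on the probes chosen. Its second, dimmer probe, well above background on 7 arrays, differed by 1.51. Rrm2, the regulated subunit of ribonucleotide reductase, was 7.01-fold higher at 2.81. At the other end Tyms, which makes thymidylate, and Cdc45, which activates the helicase, both differed by 0.09. The other 5 S phase genes short of 2-fold were Gins2 at 0.71, Rfc3 at 0.90, Ccne1 at 0.91, Pcna at 0.93 and Pola1 at 0.97.

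At 6 d the median G2/M gene differed by 1.08 and 15 of 26 were at least 2-fold higher. The median S phase gene differed by 0.76 and 6 of 25 reached 2-fold. The 21 members stand against 4.22% of 29332 genes measured, and none was at least 2-fold lower, against 2.12%. Aurkb and Cenpf are among the 15 by their measured differences of 1.77 and 1.82, but no fold can be given for them since the control was below background, and 13 of the other 24 reached 2-fold. Top2a at 1.72 and Mki67 at 1.70 were highest among G2/M genes above background on both arrays, and Cenpa at -0.13 and Fam64a at 0.08 were lowest. Uhrf1 at 2.17 and Rrm2 at 1.69 led the S phase genes, and Cdc45 at -0.15 and Tyms at -0.07 stayed near the control.

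At 10 d the G2/M median was -0.81, where all 24 measured genes lay below 0 and 10 of them were at least 2-fold lower, against 2.14% of 28494 genes, and none at least 2-fold higher, against 4.00%. Kif2c is among the 10, and as a bound it was at least 1.88-fold lower. Fam64a at -1.79 and Ccnb2 at -1.16 were lowest of those above background on both arrays, while Foxm1 at -0.30 and Mki67 at -0.33 were highest. The S phase median was -0.11, from Tk1 at -0.71 and Ccne1 at -0.52 to Mcm7 at 0.12 and Rfc3, a subunit of the clamp loader, at 0.26, with none past 2-fold.

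At 50 d the G2/M median was -1.06, with 23 of 24 below 0 and 13 at least 2-fold lower, against 4.41% of 28402 genes, and none at least 2-fold higher, against 2.70%. Kif2c is among the 13 by its measured difference of -1.47, but it was not well above background at 50 d. Cenpa and Ccnb2 were lowest, both at -1.34, among members above background on both arrays. Aurka stood alone above the control at 0.46, and Tpx2 was next at -0.42. The S phase median was -0.20, no gene of the set passed 2-fold, and values ran from Mcm5 at -0.86 and Uhrf1 at -0.59 to Rfc4, a clamp loader subunit, at 0.36 and Rrm1, the large subunit of ribonucleotide reductase, at 0.49.

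**Figure D3:**
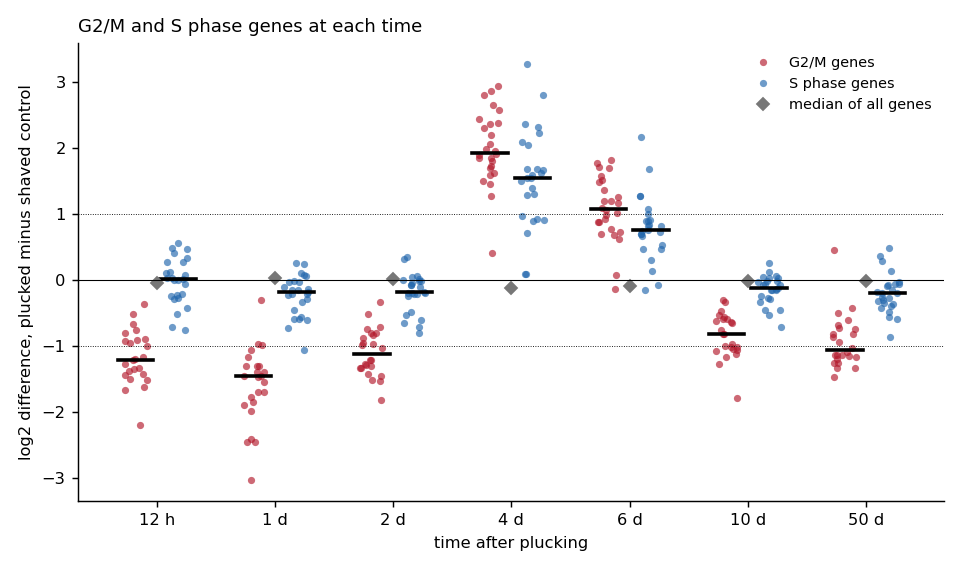
Log2 difference from the shaved control at each time, 1 point per measured member, with 24 to 26 G2/M genes left and 25 S phase genes right. Black bars are medians, diamonds the median of all genes, and dotted lines 2-fold. The sets overlap little at 12 h, 1 d and 2 d, with G2/M medians of -1.21, -1.46 and -1.12, and more at 4 d and 6 d.

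The gap between both sets, the G2/M median minus the S phase median, was -1.23 at 12 h, -1.28 at 1 d and -0.93 at 2 d. It was 0.38 at 4 d and 0.32 at 6 d, and it was -0.70 at 10 d and -0.86 at 50 d. All 25 S phase genes lay above the G2/M median at 12 h, 1 d, 2 d, 10 d and 50 d, whereas 7 did at 4 d and 5 at 6 d. The same order was therefore seen on 5 arrays that share a control with each other.

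Since the shaved array enters every difference, the levels were also set against each gene's own mean over the 8 arrays. On this scale the G2/M median was 0.28 in the shaved control, -0.84 at 12 h, -1.22 after 1 d and -0.79 after 2 d, followed by 2.30 at 4 d, 1.35 at 6 d, -0.52 after 10 d and -0.66 after 50 d. The S phase median was -0.20 in the control, -0.21 at 12 h, -0.43 at 1 d and -0.36 at 2 d, then 1.24 at 4 d and 0.49 at 6 d, and later -0.37 at 10 d and -0.40 at 50 d. The shaved control was thus the third highest array for G2/M genes as a set, above all plucked arrays other than 4 d and 6 d. It was the third highest for 20 of 22 single G2/M genes and for 7 of 25 S phase genes. The 6 d array was second for 21 G2/M genes and 23 S phase genes, and 1 d was the lowest array for 18 of the 22 G2/M genes.

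**Figure D4:**
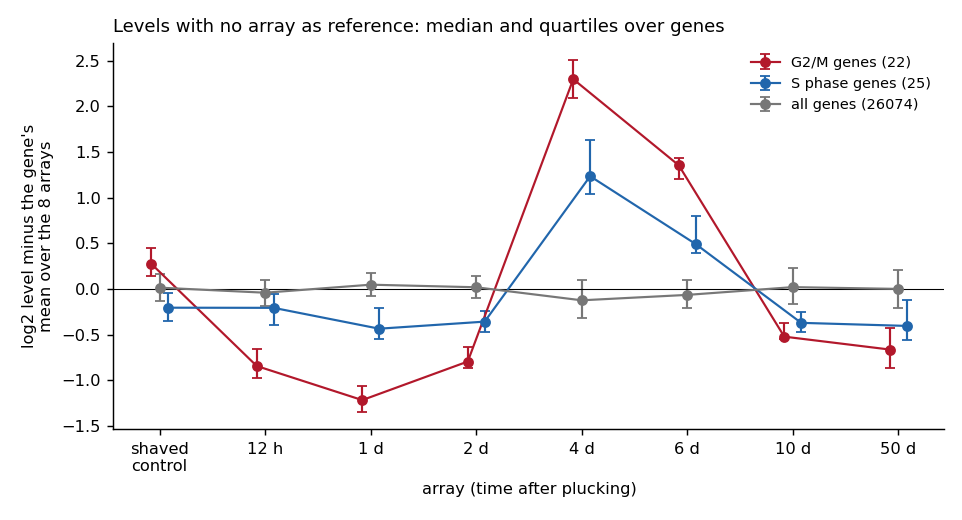
Log2 level minus each gene's mean over the 8 arrays, as median (points) and quartiles (bars) over 22 G2/M genes, 25 S phase genes and 26074 genes in all that were well above background on every array. The G2/M median is 0.28 in the shaved control, above the 12 h, 1 d, 2 d, 10 d and 50 d arrays, while the S phase median of -0.20 is close to them.

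Compared with the 50 d array instead, which shares the slide column of the early arrays, the early G2/M differences were smaller. The G2/M median was -0.19 at 12 h with 18 of 23 members lower, -0.56 at 1 d with 21 of 23 lower, and -0.13 at 2 d with 17 of 23 lower. The S phase medians were 0.20, 0.06 and 0.07 at these times. Within the other slide column, which holds the shaved control, the G2/M medians were the 1.94 at 4 d, 1.08 at 6 d and -0.81 at 10 d given above. The part of the slide column in the remaining differences from the control was not tested.

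Between neighbouring times the step from 2 d to 4 d was the main one, and it does not use the control. Its arrays lay in different slide columns, however, and the part of the column in this step was not tested. G2/M genes differed by a median of 3.05 at 4 d against 2 d, or 8.28-fold, and by measured value all 26 were at least 2-fold higher. Of these, 23 were above background on both arrays. As bounds, at 4 d against 2 d Kif2c was at least 8.21-fold, Cenpf at least 1.44-fold and Aurkb at least 1.11-fold higher. S phase genes differed by 1.54, or 2.91-fold, with 22 of 25 at least 2-fold higher. The 48 members of both sets, 45 of them above background on both arrays, stand against 4.78% of 29016 genes measured. Bub1 at 3.96 and Kif4, a chromosome-bound motor, at 3.70 led the G2/M genes, and Foxm1 at 1.96 and Cenpa at 2.23 came last among those above background on both arrays. Uhrf1 at 3.76 and Tk1 at 3.04 led the S phase genes, and Tyms at 0.04 and Cdc45 at 0.28 came last.

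After 4 d both sets were lower again. At 6 d against 4 d all 51 measured members were lower, with medians of -0.90 for G2/M and -0.76 for S phase genes. Kif11 was lowest at -1.69 and Pola1, the catalytic subunit of DNA polymerase alpha, differed least at -0.06. At 10 d against 6 d the medians were -1.88 for G2/M and -0.87 for S phase genes. At 10 d against 4 d all 26 G2/M genes by measured value, 23 of them above background on both arrays, and 20 of 25 S phase genes were at least 2-fold lower, against 6.00% of 28671 genes. The medians were -2.77 for G2/M and -1.60 for S phase genes. As bounds Kif2c was at least 6.21-fold and Cenpf at least 1.09-fold lower, and no fold can be given for Aurkb, which was below background at 10 d. The 10 d and 50 d arrays were close to each other, with medians of 0.14 for G2/M and 0.11 for S phase genes at 10 d against 50 d, and Aurka at -1.58 was the member that differed by more than 2-fold.

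The best known proliferation marker, Mki67, which coats mitotic chromosomes, had levels of 1.19 in the shaved control, 0.28 at 12 h, -0.12 after 1 d and 0.38 after 2 d, followed by 4.00 at 4 d, 2.88 at 6 d, 0.86 after 10 d and 0.46 after 50 d. Its probe lies at chr7:142881591-142881650 on mm9. It was 7.04-fold above the control at 4 d, and its second probe differed by 2.81. Both peak arrays lay far above all others, with the control next.

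Top2a had levels of -2.0003 in the shaved control, -2.95 at 12 h, -3.78 at 1 d and -2.80 at 2 d, then 0.87 at 4 d and -0.28 at 6 d, and later -2.62 at 10 d and -3.08 at 50 d. The lowest array was 1 d and the highest 4 d, with the control above all but 4 d and 6 d. Its difference from the control was -1.78 at 1 d and 2.87 at 4 d.

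Cdk1, with its probe at chr10:68801072-68801131 on mm9, had levels of -1.90 in the shaved control, -3.33 at 12 h, -3.29 after 1 d and -3.11 after 2 d, followed by 0.48 at 4 d, -0.32 at 6 d, -2.96 after 10 d and -3.06 after 50 d. The control was above each plucked array other than 4 d and 6 d by more than 1 log2 unit. Its probes disagree: a dimmer probe, well above background on all arrays, differed by -0.29 at 4 d and 0.23 at 1 d, and the dimmest, above background on 2 arrays, differed by 3.29 at 4 d.

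Ccnb1, the cyclin B1 partner of Cdk1, had levels of -0.93 in the shaved control, -1.68 at 12 h, -1.91 at 1 d and -1.64 at 2 d, then 1.65 at 4 d and 0.55 at 6 d, and later -1.39 at 10 d and -1.54 at 50 d. It was 5.98-fold higher at 4 d and did not reach 2-fold on any of the arrays where it was lower. Its other probes differed by 1.89 and 1.98 at 4 d and by 0.27 and -0.70 at 1 d.

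The least variable G2/M gene before 4 d was Foxm1, with levels of -1.81 in the shaved control, -2.17 at 12 h, -2.11 after 1 d and -2.14 after 2 d, followed by -0.18 at 4 d, -1.13 at 6 d, -2.12 after 10 d and -2.31 after 50 d. It was 3.10-fold higher at 4 d, and the early arrays lay close to each other. Its largest difference below the control was -0.50, at 50 d.

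Among S phase genes, Mcm2, a subunit of the MCM2 to MCM7 helicase, had levels of -0.45 in the shaved control, 0.02 at 12 h, -0.58 at 1 d and -0.55 at 2 d, then 1.60 at 4 d and 0.44 at 6 d, and later -0.61 at 10 d and -0.15 at 50 d. It was above the control at 12 h by 0.47 and at 4 d by 2.05. Pcna, the sliding clamp of DNA polymerases, had levels of 3.05 in the shaved control, 3.07 at 12 h, 2.94 after 1 d and 2.87 after 2 d, followed by 3.98 at 4 d, 3.53 at 6 d, 2.71 after 10 d and 2.87 after 50 d. The 4 d and 6 d arrays were highest for Pcna too, but it was 1.91-fold higher at 4 d and so stayed under 2-fold.

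Rrm2 had levels of -0.13 in the shaved control, -0.13 at 12 h, -0.30 at 1 d and -0.33 at 2 d, then 2.68 at 4 d and 1.57 at 6 d, and later -0.26 at 10 d and -0.55 at 50 d. Uhrf1, with its probe at chr17:56462770-56462829 on mm9, had levels of -0.38 in the shaved control, -0.35 at 12 h, -0.61 after 1 d and -0.86 after 2 d, followed by 2.90 at 4 d, 1.78 at 6 d, -0.46 after 10 d and -0.97 after 50 d. For both genes the 4 d and 6 d arrays stood well above the other 6, and the control lay among those. Ccne1, the cyclin E1 that starts S phase, had levels of -0.26 in the shaved control, -0.47 at 12 h, -0.82 at 1 d and -0.86 at 2 d, then 0.66 at 4 d and 0.05 at 6 d, and later -0.78 at 10 d and -0.60 at 50 d. Its difference at 4 d was 0.91, under 2-fold.

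**Figure D5:**
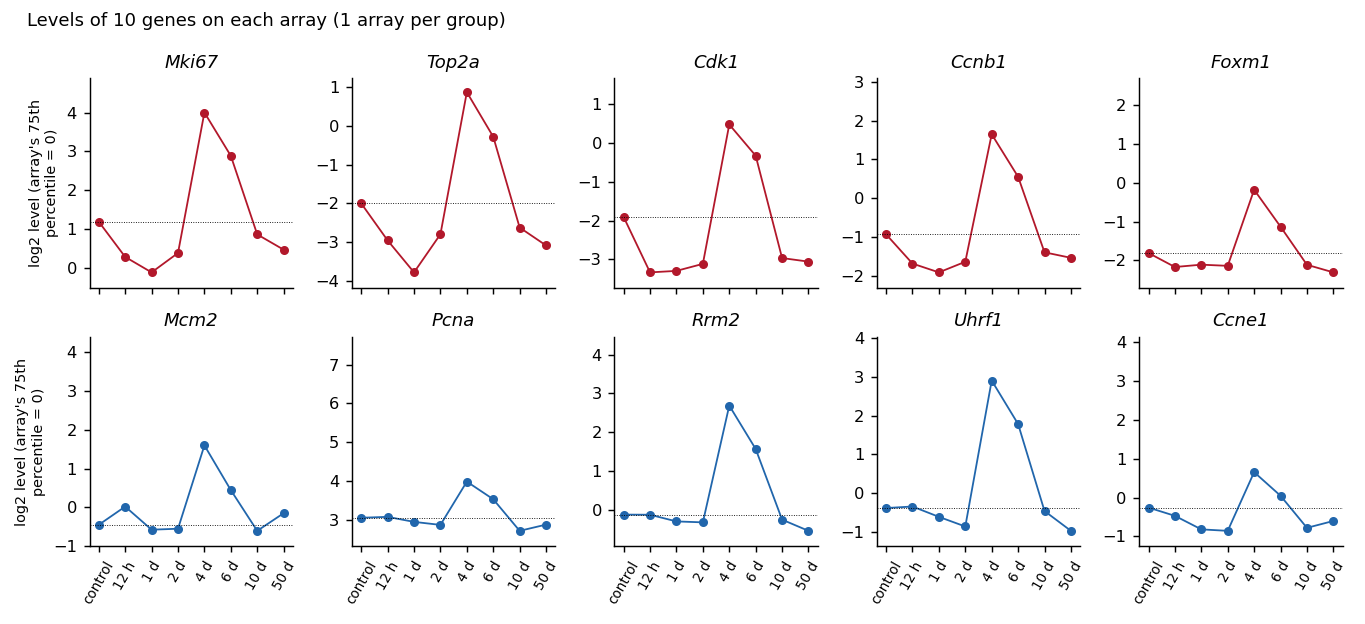
Log2 level of 10 members on each of the 8 arrays, relative to the array's 75th percentile, with 1 array per point and axes that all span the same range. Red are G2/M and blue S phase genes, and the dotted line is the level of the shaved control. All 10 are highest at 4 d, and 12 h to 2 d lie below the line for the red genes.

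At each of the 7 times the medians of all G2/M roles shared a sign. Cdk1 and its cyclins Ccna2, Ccnb1 and Ccnb2 had a median difference of -1.42 at 1 d and 2.35 at 4 d. Ccna2, cyclin A2, which acts in S and G2 phase, differed by -1.46 at 1 d and 2.31 at 4 d, and Ccnb2 by -1.99 and 1.47, the largest loss and the smallest gain of these 4. Mitotic kinases and their partners, Plk1, Aurka, Aurkb and the passenger protein Birc5, had medians of -1.55 at 1 d and 1.83 at 4 d. Plk1, the polo kinase of mitotic entry, differed by -1.55 and 1.96, and Birc5 by -1.70 and 1.70.

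The spindle checkpoint and the anaphase-promoting complex were represented by Bub1, Bub1b, Cdc20 and Ube2c, with medians of -1.499 at 1 d and 2.03 at 4 d. All 4 were at least 2-fold lower at 1 d and at least 2-fold higher at 4 d. Over all genes measured these shares were 3.14% lower at 1 d and 5.93% higher at 4 d. Bub1b, the checkpoint protein BubR1, differed by -1.17 and 1.86, Cdc20 by -1.31 and 2.20, and Ube2c by -1.69 and 1.59. The 7 motors and spindle proteins had medians of -1.46 at 1 d and 1.89 at 4 d. Against the same shares of all genes, 6 of 7 were at least 2-fold lower at 1 d and all 7 at least 2-fold higher at 4 d. Kif20a, a motor of cell separation, differed by -1.84 and 1.89, Nusap1, a microtubule-binding spindle protein, by -1.89 and 1.81, and Prc1, which bundles the central spindle, by -1.31 and 1.86.

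Cenpa departed from the rest of its set. Its levels were 0.66 in the shaved control, -1.54 at 12 h, -1.75 after 1 d and -1.15 after 2 d, followed by 1.08 at 4 d, 0.54 at 6 d, -0.37 after 10 d and -0.67 after 50 d. The control, 4 d and 6 d arrays stood together and the early arrays far below them. Cenpe, the kinetochore motor, kept the usual pattern with -1.45 at 1 d and 2.06 at 4 d.

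Fam64a was similar to Cenpa in its high control. Its levels were -1.75 in the shaved control, -3.41 at 12 h, -4.78 at 1 d and -3.18 at 2 d, then -0.25 at 4 d and -1.67 at 6 d, and later -3.55 at 10 d and -2.92 at 50 d. At 6 d it had returned to the level of the control, from which Mki67 then still differed by 1.70. Aurka was the exception at the end of the series, with levels of -0.18 in the shaved control, -0.85 at 12 h, -1.25 after 1 d and -1.15 after 2 d, followed by 1.101 at 4 d, 0.51 at 6 d, -1.30 after 10 d and 0.28 after 50 d. It has 1 probe on the array.

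Among S phase genes, the median of the origin licensing genes, which load the helicase onto DNA, was 0.31 at 12 h, -0.21 at 1 d and 1.68 at 4 d. All 8 were at least 2-fold higher at 4 d, against 5.93% of all genes. At 12 h 7 of these 8 lay above the control, by 0.10 for Mcm6 to 0.56 for Mcm7, and Cdc6, a loader of the helicase, lay below it at -0.41. Mcm7 had levels of 1.55 in the shaved control, 2.11 at 12 h, 1.79 at 1 d and 1.88 at 2 d, then 3.23 at 4 d and 2.25 at 6 d, and later 1.67 at 10 d and 1.49 at 50 d. No other role had so many members above the control at 12 h, but this role was also the largest. The difference of Mcm6 was smaller than the typical SD between probes of 1 gene at 12 h, 0.17. None of these differences reached 2-fold.

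Mcm3, Mcm4 and Mcm6 differed at 4 d by 1.55, 1.55 and 1.5005, while Mcm5 and Mcm2 differed by 2.10 and 2.05. Mcm5 also went lower than the other helicase subunits, to -0.72 at 1 d, -0.80 at 2 d and -0.86 at 50 d. Helicase activation genes were split, with Gins1 at 1.68 and Mcm10, which helps to open the origin, at 1.63 at 4 d, against Gins2 at 0.71 and Cdc45 at 0.09. Cdc45 had levels of -2.60 in the shaved control, -2.84 at 12 h, -2.74 after 1 d and -2.78 after 2 d, followed by -2.50 at 4 d, -2.75 at 6 d, -2.84 after 10 d and -2.68 after 50 d.

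The enzymes of DNA synthesis had a median of 1.30 at 4 d, with 4 of 7 at least 2-fold higher, against 5.93% of all genes. The primase subunit Prim1 stood out with 2.37, followed by Fen1, which trims Okazaki fragments, at 1.40, the clamp loader subunit Rfc4 at 1.31 and Lig1, the ligase that joins the fragments, at 1.30. In nucleotide synthesis the median was 1.95, with Rrm2 at 2.81, Tk1 at 2.32 and Rrm1 at 1.59. Tyms had levels of -1.90 in the shaved control, -2.17 at 12 h, -1.93 at 1 d and -1.86 at 2 d, then -1.81 at 4 d and -1.97 at 6 d, and later -1.93 at 10 d and -2.05 at 50 d. Tyms and Cdc45 were well above background on all arrays and almost level throughout, each on a single probe.

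Tk1 was the S phase gene that was at least 2-fold lower at 1 d. Its levels were -0.17 in the shaved control, -0.89 at 12 h, -1.23 after 1 d and -0.89 after 2 d, followed by 2.15 at 4 d, 1.11 at 6 d, -0.89 after 10 d and -0.23 after 50 d. Of its other probes, one differed by -1.02 at 1 d and 1.30 at 4 d and another by -0.23 and 0.03. Over 9 members with several probes above background on all arrays, the probes' differences spanned more than 1 log2 unit for Birc5, Ccnb1 and Cdk1 at 1 d and for Cdk1, Tk1 and Tpx2 at 4 d. Ccne2, cyclin E2, was not well above background on any array, so it has no value.

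Within each set the medians were also compared by promoter letters. Among G2/M genes, the 4 without CHR letters, Birc5, Ccnb1, Cenpe and Nusap1, had a median of -1.57 at 1 d and 1.94 at 4 d, and the measured ones with them had -1.46 and 2.08. Among S phase genes, the 5 with CHR letters, Cdc45, Fen1, Mcm2, Mcm7 and Rfc3, had a median of -0.15 at 1 d and the 17 without had -0.20. S phase genes with E2F letters had a median of 1.59 at 4 d, from 0.90 to 3.29, and the 7 without had 0.93, from 0.09 to 2.32. At 6 d these medians were 0.81 with and 0.48 without the letters, but at 4 d against 2 d they were close, at 1.60 and 1.51. No test was made, and the letters are a coarse search of a short window.

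Genes of the same processes outside the 52 followed a similar course. Of 51 further mitosis genes, 13 of 48 measured were at least 2-fold lower at 12 h, 21 of 49 at 1 d and 15 of 48 at 2 d. Over all genes measured the shares at these times were 3.36%, 3.14% and 3.52%. At 4 d 38 of 51 were at least 2-fold higher with a median of 1.70, against 5.93% of all genes. At 10 d 12 of 48 were at least 2-fold lower, against 2.14%. Pbk, a mitotic kinase, differed by 2.99 at 4 d and Kif15, a spindle motor, by 2.64. Ttk, the checkpoint kinase MPS1, was at least 3.81-fold and Cdc25c, the phosphatase that activates Cdk1, at least 5.00-fold higher. At 50 d the median was -0.72, and 10 of 48 were at least 2-fold lower, against 4.41% of all genes. Kif14, a motor of cell separation, was at least 2-fold higher at 50 d, at 1.23.

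Of 34 further replication and repair genes on the array, 33 were measured, and their medians were -0.04 at 12 h, -0.19 at 1 d and -0.17 at 2 d, then 1.03 at 4 d and 0.40 at 6 d, and later -0.11 at 10 d and -0.13 at 50 d. At 4 d 17 of 33 were at least 2-fold higher, against 5.93% of all genes, and none at least 2-fold lower, against 6.54%. Exo1, an exonuclease of mismatch repair, differed by 2.87, Hells, a chromatin remodeller, by 2.72, Clspn, the checkpoint adaptor claspin, by 2.70 and Pole, the catalytic subunit of DNA polymerase epsilon, by 2.09. The contrast of early lower mitosis and level replication genes was thus present in these lists as well. These lists share the arrays and the control with the 52, and like them were chosen with earlier results of these data known.

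By their median at 4 d, regulators of both programmes moved less than either set, although Mycn moved more than any member. Of 19 E2F, DREAM, MYB and MYC genes, none was past 2-fold at 12 h or 1 d. That is near the shares of all genes. These were 3.36% lower and 3.89% higher at 12 h, and 3.14% lower and 2.75% higher at 1 d. The median of the 19 at 4 d was 0.58, with 4 at least 2-fold higher, against 5.93% of all genes. Mycn, a MYC family factor, had levels of -4.55 in the shaved control, -3.84 at 12 h, -4.31 at 1 d and -2.83 at 2 d, then 1.45 at 4 d and 0.46 at 6 d, and later -1.91 at 10 d and -2.32 at 50 d, a difference of 5.99 at 4 d. E2f2, an activating E2F, differed by 2.56 at 4 d, E2f8, a repressing one, by 1.88 and Mybl2, the MYB factor that joins MuvB, by 1.67.

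G1 cyclins and kinases had a median of 0.96 at 4 d, and, against 5.93% of all genes, 4 of 8 were at least 2-fold higher. They were Skp2, which marks CDK inhibitors for destruction, at 1.68, the D cyclins Ccnd1 at 1.37 and Ccnd2 at 1.22, and Cdk4, their kinase, at 1.02. Of 7 CDK inhibitors, Cdkn1a, which encodes p21, had levels of 1.08 in the shaved control, 3.23 at 12 h, 2.73 after 1 d and 1.76 after 2 d, followed by 2.32 at 4 d, 2.18 at 6 d, 2.18 after 10 d and 1.66 after 50 d. It was highest on the first plucked array and above the control on all 7. At 4 d Cdkn2b, which encodes p15, differed by 1.97, Cdkn2a by 0.88 and Cdkn1c, which encodes p57, by -0.67.

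Markers of other cell types moved beside these differences. The summed linear level of 8 hair germ and matrix markers, in units of the array's 75th percentile, was 2.27 in the shaved control, 4.06 at 12 h, 3.06 at 1 d and 4.88 at 2 d, then 38.4 at 4 d and 18.3 at 6 d, and later 5.79 at 10 d and 3.18 at 50 d. It was highest at 4 d and next at 6 d, as the members were. All 8 markers were well above background at 4 d and 6 d and 7 of them on the other arrays, Shh being below background in the control. Its part in the members' differences was not tested.

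The summed level of the 6 melanocyte markers, all well above background on every array, was also highest at 4 d and next at 6 d. They summed to 7.202 in the shaved control, 5.77 at 12 h, 6.68 at 1 d and 10.45 at 2 d, then 54.9 at 4 d and 43.3 at 6 d, and later 17.2 at 10 d and 7.28 at 50 d. Single markers departed from the sum. At 4 d the lowest of them differed from the control by -0.07, and Tyrp1 had levels of 2.69 at 4 d and 2.72 at 6 d. The part of the melanocyte markers in the members' differences was not tested either.

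The 7 basal keratinocyte markers summed to 42.4 in the control, 96.03 at 12 h, 136 after 1 d and 83.9 after 2 d. Their sum was then 144 at 4 d, 66.9 at 6 d, 30.1 after 10 d and 40.9 after 50 d. It too was highest at 4 d, but next at 1 d, where the G2/M genes were lowest. Krt5 and Krt15 were likewise highest at 4 d, but other single markers departed from the sum. Krt14 was highest at 1 d, at 4.11 against 3.39 at 4 d, and so was Col17a1, at 1.61 against 0.56. The 8 hair shaft and inner root sheath markers summed to 2.93 in the control, 625 at 4 d, 678 at 6 d and 332 at 10 d, still high when the members were not. The 7 lymphocyte markers summed to 35.3 at 12 h and to 2.95 to 3.83 on the other arrays.

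The sum of the 7 macrophage markers was highest in the shaved control, at 259, with 134 at 12 h, 128 at 1 d and 116 at 2 d. It was then 95.8 at 4 d and 183 at 6 d, and later 226 at 10 d and 124 at 50 d. The control was thus high for this sum and for G2/M genes alike, while 4 d was highest for G2/M genes and lowest for this sum. Single markers departed from it: the highest at 10 d differed from the control by 0.23, and Aif1 was lowest at 2 d, at 1.93. The 8 mature adipocyte markers summed to 644 in the control, 681 at 12 h, 852 at 1 d and 867 at 2 d, then 425 at 4 d and 359 at 6 d, and later 445 at 10 d and 720 at 50 d. They were lower on the 4 d, 6 d and 10 d arrays, which share a slide column with the control, and the part of either in the members' differences was not tested.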

How the data were processed

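The authors deposited 1 file per array of spot intensity from Agilent Feature Extraction 10.5.1.1, background-subtracted per the file headers, with no normalization between arrays recorded there. Control and flagged spots were left out, leaving 55668 probes of 34790 gene names; no spot was saturated. Each value is log2 of the processed signal minus its array's 75th percentile, and each gene was read from its probe of highest mean level. A gene was measured when well above background on the brighter array, and counted at 2-fold or more. A gene dim on the other array has only a bound, its fold against the higher of that array's lowest signal above background and its own. With 1 array per group no test was run, and the number of arrays limits the precision. Members and lists were chosen with earlier results of these data known. Genes were named by rule: 10 fixed members, and per time and set the 2 highest and lowest. From each other list the rule took the 4 largest differences at 4 d; further genes and members, such as Kif14, were chosen after their values were seen. Probe positions are those of the array design on mm9, gene names are of that design, and promoter windows are RefSeq's on GRCm38.p6. The arithmetic of the calls was checked on shifts well past 2-fold put into the control array's values. With noise below the spread between probes and unchanged background flags, that check says nothing about wrong calls or bounds. Python 3.11.15 with pandas and R 4.3.3 with limma 3.58.1 were used. Alternatives were normexp with an offset of 50, quantile normalization, another centring, other probe and member summaries, other fold thresholds and the 50 d array as the reference.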

Additional observations from a re-analysis of the deposited data

How the results depend on the processing

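Over the 14 medians of both sets, quantile normalization, centring on probes above background on all arrays, the mean over probes, the mean of the members, members above background on all arrays, stricter sets and dim members at their bound (an alternative chosen after seeing the data) moved none beyond the spread between probes. With normexp, whose offset compresses low signals by construction, the G2/M medians were -0.91 at 12 h, -1.17 at 1 d and -0.80 at 2 d, then 1.70 at 4 d and 0.88 at 6 d, and later -0.53 at 10 d and -0.60 at 50 d. It left 13, 6, 2 and 4 members at least 2-fold lower on the 1 d, 2 d, 10 d and 50 d arrays, and 12 higher at 6 d. Counts over all genes fell as well, to 377, 522, 212 and 409 lower on these arrays from 900, 1012, 609 and 1252. At 6 d the genes at least 2-fold higher fell to 634 from 1238. Normexp turned Aurkb to -0.23 and Cenpf to -0.24 at 6 d, both dim in the control. Set against the 50 d array, the S phase medians were 0.20 at 12 h, 0.0619 at 1 d and 0.0666 at 2 d, then 0.95 at 6 d and 0.11 at 10 d, with the direction turned at 1 d, 2 d and 10 d. The G2/M medians were then -0.19 at 12 h, -0.56 at 1 d and -0.13 at 2 d, then 2.91 at 4 d, 1.99 at 6 d and later 0.14 at 10 d, so that at 10 d the direction turned, and 1, 7, 1 and 1 members were at least 2-fold lower at 12 h, 1 d, 2 d and 10 d, with 2 higher at 12 h and 37 at 6 d. The cause was not tested. At 1.5-fold 24, 26, 19 and 23 members were lower at 12 h, 2 d, 10 d and 50 d. At that fold 42 were higher at 6 d. At 3-fold 3, 10, 1, 1 and 0 members were lower at 12 h, 1 d, 2 d, 10 d and 50 d. At that fold 6 were higher at 6 d. Counts over all genes are not given here for the 50 d reference or for these folds. Of 1388 values of single members under 4 of these settings, 1231 moved by less than the spread between probes. No paired analysis was possible because each group holds 1 array.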
